A study of Mus musculus with 8 samples.

Results

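FGSC-only loci are transcribed stretches of mouse genes that carried a peak of N4-acetylcytidine (ac4C) in both libraries of female germline stem cells (FGSCs) and in neither library of the cells differentiated from them (Dif-FGCs). Peaks of the 4 deposited lists were pooled, and peaks sharing at least 1 bp were merged to loci, ignoring strand. Of 39860 loci, 1439 met this rule, which is 3.61% of all loci. The opposite rule gave 1453 Dif-FGC-only loci (3.65%), and 6160 loci had a peak in all 4 lists. The loci were chosen by the presence of peaks in these 4 lists, so their number, fold and length are a description without a test.

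RNA from 8 mouse libraries was sequenced, with an ac4C antibody used to enrich acetylated fragments after rRNA depletion (acRIP-seq). Dif-FGCs were FGSCs at day 3 of differentiation, co-cultured by the study's methods with granulosa cells in medium holding retinoic acid, BMP4 and bFGF. FGSCs were the same kind of cells in culture without that induction. Each group had 2 immunoprecipitated (IP) libraries with an input library each. The labels do not say that the replicates were separate cultures. The co-culture limits Dif-FGCs as a model, since RNA of granulosa cells can enter their libraries.

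ac4C is an acetyl mark on the base cytidine that the enzyme NAT10 writes on ribosomal, transfer and messenger RNA. In mRNA it has been linked to transcript stability and translation. FGSCs are germ cells of the postnatal ovary that divide in culture and can enter meiosis when differentiation is induced.

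A peak here is a region where the authors' caller found more IP than input reads. Its fold is the ratio of IP over input that the caller gave, and ranks peaks within a list. No read counts were used here, so depth is unknown, a missing peak does not show that ac4C is absent, and less ac4C and less RNA of a gene cannot be told apart. The authors' false discovery rate was not used as a filter, and 0 of the 1439 loci had one of 5% or less in an FGSC list. The median rate over these loci was 68.9% in FGSC 1 and 64.7% in FGSC 2. Medians this high were not particular to these loci. Over every peak, each FGSC list had a median of 68.6%, and loci in all 4 lists had FGSC medians of 68.5% and 71.3%. No peak of either Dif-FGC list reached 5% or less. In Dif-FGC 1 the lowest rate was 55.85% and the median 59.9%, and in Dif-FGC 2 both were 100%. In FGSC 2 the lowest rate of any peak was 29.4%, while FGSC 1 held peaks down to 0%. Coordinates are in the mm10 build.

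Of the 9378 loci held by both FGSC lists, 6160 were in all 4 lists, 1779 were also in 1 Dif-FGC list, and the FGSC-only loci made up 15.3%. Their peaks were 1442 of FGSC 1 (6.33% of that list) and 1441 of FGSC 2 (8.85%). Only 5 loci held more than 1 peak of a list. Both requirements set the number. Without FGSC 1 there were 5782 loci and without FGSC 2 there were 9815, because 1 library then stood for FGSCs. Without Dif-FGC 1 there were 2689 and without Dif-FGC 2 there were 1954. With only the peaks in the upper 50% of each list by fold there were 800.

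Many FGSC-only loci lay over the start of their gene, as described further on, so the first transcribed bases of the strongest such loci are shown. They are the first 30 bases of the RefSeq transcript (GRCm38.p6) on the sense strand, from 5′ to 3′, for the 6 loci with the highest folds that held at least the first 50 bases. Capitals mark runs of CNNCNNCNN, a C followed by any 2 bases and repeated, which is the sequence pattern associated with ac4C.
Gm20594: ctgttaatccaacacaggaataccttaagg
Ccdc9: gagtgaagaggtgatgactgagttgcggtg
Zfp451: aatccctcgcggggcgggaggaaggcgggg
Emilin1: ctgaagCAGCGGCATCCCCTGgaagtgcgg
Zfp664: ctcccggaggcgtctgggtgtgcggagcgc
Ccnyl1: cggagccggcgagggCCACCACCTGCAGca

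These stretches are the 5′ ends of the transcripts and can hold UTR. They lie on the plus strand for Gm20594 (chr6:79818031-79818060), Emilin1 (chr5:30913786-30913815), Zfp664 (chr5:124862705-124862734) and Ccnyl1 (chr1:64691345-64691374), and on the minus strand for Ccdc9 (chr7:16285988-16286017) and Zfp451 (chr1:33814566-33814595). The pattern was found in 2 of the 6, Emilin1 and Ccnyl1. Over the first 30 bases of all 294 starts that lay inside FGSC-only loci with their first 50 bases, 36.7% held it on the sense strand, against 32.1% of all 32851 starts in the table. Over the first 50 bases the sense-strand shares were 58.5% for FGSC-only loci, 62.1% for Dif-FGC-only loci (132 starts), 66.1% for loci in all 4 lists (2072 starts) and 49.3% for every start. On the other strand they were 76.2%, 83.3%, 83.3% and 58.7% in the same order. The first 50 bases had a median GC content of 66% in FGSC-only loci, 68% in Dif-FGC-only loci, 70% in loci of all 4 lists and 56% over every start. A match describes these letters alone. No motif was looked for in the rest of the peaks.

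The fold of FGSC-only loci ran over a wide range. Its median was 10.7 in FGSC 1 (2.55 to 514, n = 1439) and 5.98 in FGSC 2 (2 to 468). Loci in all 4 lists had medians of 21.4 and 12.9 in FGSC 1 and FGSC 2, and peaks held by 1 FGSC list alone had 7.14 and 4.4. Within its own list the median FGSC-only peak stood at the 52.9th percentile by fold in FGSC 1 and at the 43.5th in FGSC 2. Both folds were in the upper 50% of their lists at 444 loci and in the lower 50% at 519. Across loci, which are no independent replicates and share both libraries, the folds of the FGSC replicates correlated with a Spearman's rho of 0.478 (n = 1439), and with 0.645 over the 6160 loci in all 4 lists.

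**Figure D1:**
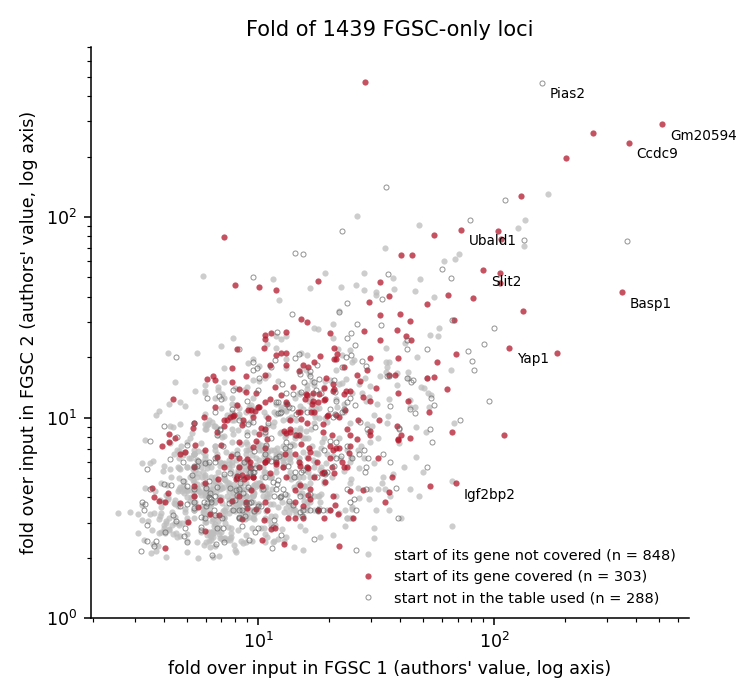
Authors' fold over input of each of the 1439 FGSC-only loci in FGSC 1 (horizontal, log axis) and in FGSC 2 (vertical, log axis), 1 point per locus. Red points cover a RefSeq start of their gene (303), grey points do not (848), and open points have no start in the table used (288). Gm20594 and Ccdc9 stand high in both libraries, while Basp1 and Igf2bp2 stand far higher in FGSC 1 and the median folds are 10.7 and 5.98.

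The FGSC peaks of a locus usually matched closely. At 363 of the 1439 loci they had identical limits, at 1168 (81.2%) at least 1 limit was equal, and at 1253 (87.1%) the shorter peak lay wholly inside the longer one. At 53 loci the overlap was under 50% of the shorter peak, and the shortest overlap was 1 bp. The median length of the merged locus was 166 bp (14 to 3111 bp), against 185 bp for Dif-FGC-only loci, 247 bp for loci in all 4 lists and 155 bp for every locus. FGSC-only loci of 1000 bp or more numbered 24.

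The 20 strongest loci, by the mean percentile of fold in both FGSC libraries, had folds of at least 70.9 in FGSC 1 and 42.2 in FGSC 2. Of these, 10 covered a start of their gene, 5 did not, and 5 had no start in the table used. The peak limits were identical in both FGSC lists at 14 of the 20.

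The first by rank was the predicted gene Gm20594, whose single locus in the series lay at chr6:79818031-79818348 (318 bp). Its fold was 514 in FGSC 1 and 290.1 in FGSC 2. Ccdc9, a coiled-coil protein gene, followed with a 99 bp locus at its start (chr7:16285927-16286025) and folds of 372 and 235. Zfp451, which encodes a zinc finger protein with SUMO ligase activity, had nearly equal folds of 263 and 261 at chr1:33814338-33814595. A further SUMO ligase gene, Pias2, had 159 in FGSC 1 and 466 in FGSC 2. At these 4 loci the ratio over input was above 150 in both libraries, but the order of the libraries was not the same.

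Several of the 20 were genes for RNA synthesis and processing. Supt5, a subunit of the elongation factor that pauses and releases RNA polymerase II, had folds of 168 and 130.2 at chr7:28330580-28330645. Casc3, a core part of the exon junction complex, had 134 and 76.4 at chr11:98809694-98810091. Rsrc1, an arginine- and serine-rich splicing protein gene, had 133 and 72.1 at chr3:66985670-66985806, and the AU-rich element-binding protein gene Hnrnpd had 70.9 and 65.1 at chr5:99976534-99976590. Sub1, a transcriptional coactivator gene, had 106 and 52.4 over its start (chr15:11995951-11996058). All 5 genes had Dif-FGC peaks elsewhere, and all but Casc3 had a locus in all 4 lists.

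Others were genes for protein handling. Fbxo2, the F-box subunit of a ubiquitin ligase for glycoproteins, had folds of 201.4 and 196 over its start (chr4:148160621-148160711). Rnf5, a ubiquitin ligase of the endoplasmic reticulum, had 112 and 122 at chr17:34603334-34603690, and Spcs2, a subunit of the signal peptidase, had 126 and 88.4 at chr7:99848976-99849059. Kpna6, an importin alpha that carries proteins into the nucleus, had 79.2 and 96.9 at chr4:129672677-129672767. Rnf5 had no other locus and no Dif-FGC peak anywhere in the gene, whereas Fbxo2, Spcs2 and Kpna6 had Dif-FGC peaks elsewhere.

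The remaining strong loci lay in genes of the cell surface or of unclear role and in a pseudogene. Emilin1, a glycoprotein gene of elastic fibres, had folds of 129 and 127 over a 643 bp locus at its start (chr5:30913402-30914044). Plxnb3, a semaphorin receptor gene, had 136 and 96.3 at chrX:73764430-73764513, its single locus. Basp1, a membrane-bound signalling protein gene, had 347 in FGSC 1 and 42.2 in FGSC 2 over its start (chr15:25413552-25413764), the widest gap between the libraries in this group. Gm9242, described in the lists as a pseudogene of heterogeneous nuclear ribonucleoprotein A3, had 366 and 75.6. Reads may be split among near-identical copies of such a sequence, which was not tested. Zfp664 had 104 and 85.3 over its start (chr5:124862691-124862882), the cyclin-like gene Ccnyl1 had 107 and 78.0 over its start (chr1:64691213-64691400), and Ubald1 had 72.6 and 86.2. Ubald1, Gm9242 and Plxnb3 had no other locus in any list.

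The 5 longest loci were broad and differed in fold. The longest lay near the 3′ end of Srcap, a chromatin remodelling ATPase gene, and spanned 3111 bp (chr7:127557968-127561078) with folds of 9.05 in FGSC 1 and 18.8 in FGSC 2. Uaca (2500 bp) had 21.9 in both, Akap12, a kinase-anchoring scaffold gene (2321 bp), had 51.7 and 22.0, and Loxl1, a lysyl oxidase gene of elastic fibres (1527 bp), had 33.3 and 28.95. Irf2bp2, a transcriptional corepressor gene, had identical limits in both FGSC lists over 1547 bp (chr8:126592440-126593986) and folds of 4.68 and 3.75. In Uaca, Irf2bp2 and Loxl1 the Dif-FGC lists held no peak anywhere in the gene.

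Position within the gene was not part of the rule. A RefSeq start and strand was assigned to 1151 FGSC-only loci, and 303 of them (26.3%) covered a start of their own gene. The share was 11.3% for Dif-FGC-only loci (134 of 1191), 41.8% for loci in all 4 lists (2098 of 5022) and 15.9% over every locus. At 192 FGSC-only loci the upstream limit of the locus was exactly a RefSeq start. The middle of the locus fell in the first 10% of the gene's length for 33.1% of FGSC-only loci, against 15.1% of Dif-FGC-only and 44.3% of all-list loci. It fell in the last 10% for 8.84%, 14.6% and 6.96% in the same order. No test was made, since loci of the same libraries are not replicates.

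**Figure D2:**
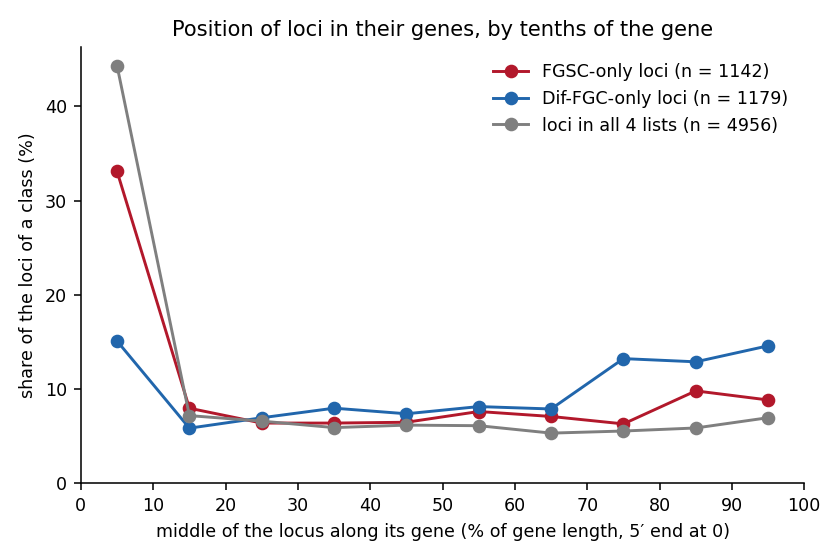
Share of the loci of each class (vertical, percent) by where the middle of the locus lay (horizontal, steps of 10% of gene length from the 5′ end), for FGSC-only, Dif-FGC-only and all-list loci. The first step holds 33.1%, 15.1% and 44.3%, and from there on the 3 lines lie between 5.33% and 14.6%.

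Up to 500 bp, longer loci covered a start more often, so the shares were also taken within length classes. They were 10.3% for FGSC-only and 2.59% for Dif-FGC-only loci of up to 100 bp, 24.6% and 7.33% from 101 to 200 bp, 35.5% and 17.6% from 201 to 300 bp, 44.2% and 24.7% from 301 to 500 bp, and 32.3% and 11.7% above that. The whole lists did not stand in that order. Peaks over a start made up 17.6% of Dif-FGC 1, 26.6% of Dif-FGC 2, 18.3% of FGSC 1 and 24.2% of FGSC 2.

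**Figure D3:**
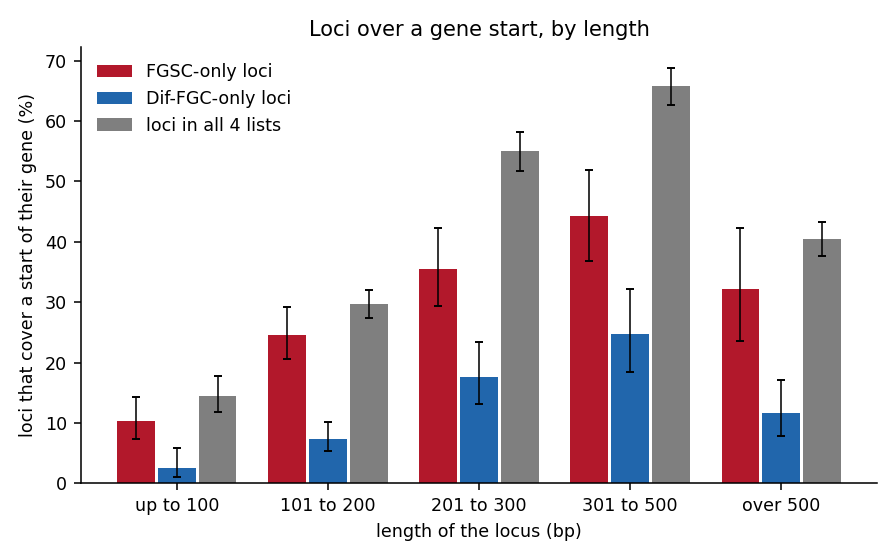
Share of loci that cover a start of their gene (bars, percent) by length of the locus in bp, for FGSC-only, Dif-FGC-only and all-list loci, with 95% Wilson intervals that cover counting error only. In each length class the FGSC-only bar stands between the Dif-FGC-only bar and the all-list bar, as at 101 to 200 bp with 24.6%, 7.33% and 29.7%.

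The order of the classes needed both FGSC lists. Without FGSC 1 the share over a start was 13.5% for loci of FGSC 2 without a Dif-FGC peak against 16.4% for Dif-FGC-only loci, and without FGSC 2 it was 8.87% against 16.8%. Without Dif-FGC 1 it was 28.2% against 8.46%, and without Dif-FGC 2 it was 27.8% against 4.71%. A class that 1 library defined thus had the lower share each time. The share also moved with the fold. With the FGSC-only loci ranked by mean percentile of fold and split into 4 groups, it was 7.64%, 19.4%, 30.3% and 47.9% from the lowest to the highest. Loci over a start had a median length of 227 bp and median folds of 15.5 in FGSC 1 and 9.12 in FGSC 2, and the other 848 had 146.5 bp, 9.07 and 5.20.

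The other loci of the same genes showed whether Dif-FGC peaks were present elsewhere in the gene. Of the 1439 FGSC-only loci, 507 (35.2%) lay in a gene that also had a locus in all 4 lists. A further 526 (36.6%) lay in a gene with some Dif-FGC peak but no such locus, so 1033 (71.8%) were in genes with a Dif-FGC peak elsewhere. The other 406 (28.2%) lay in 375 genes without any Dif-FGC peak. At 164 loci (11.4%) the FGSC-only locus was the single locus of its gene. For Dif-FGC-only loci, 54.6% lay in a gene with a locus in all 4 lists and 90.6% in a gene with some FGSC peak. Those genes held more loci, with a median of 7 against 4 per gene for FGSC-only loci, and the part of that difference in these shares was not tested. Among loci in all 4 lists, 57.0% lay in a gene with another such locus, and 8.12% were the single locus of their gene. For FGSC-only loci the share with a locus of all 4 lists rose with the number of loci in the gene. It was 16.5% at 2 to 3 loci and 70.7% at 11 or more.

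FGSC-only loci differed among themselves by this context. Where the gene had no Dif-FGC peak, 45.1% of loci covered a start, the median length was 219.5 bp, and the median folds were 11.9 and 6.67. Where the gene had a locus in all 4 lists, 11.3% covered a start, the median length was 129 bp, and the folds were 9.79 and 5.24. The number of loci per gene differed too, with a median of 2 without a Dif-FGC peak and 7 with a locus in all 4 lists. Its part in these values was not tested. For 217 of the 507 loci in genes with a locus in all 4 lists (42.8%), such a locus already occupied a start of the gene. Both kinds of group-specific locus, FGSC-only and Dif-FGC-only, occurred in 183 genes, and 113 of these had a locus in all 4 lists as well.

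The distance to the nearest Dif-FGC peak was short for some loci. Its median was 5244 bp (quartiles 1358.5 and 23573 bp), 173 loci (12.0%) had a Dif-FGC peak within 500 bp, and 27 within 100 bp. Just inside the rule stood a Cep295 locus at chr9:15354640-15354736, which a Dif-FGC 1 peak missed by 2 bp and which had folds of 13.8 in FGSC 1 and 3.56 in FGSC 2. Rnf14 followed at 6 bp, and Fgfr1op2, Mtfr1 and Tmem237 at 23, 25 and 26 bp. Just outside stood a Plekhg5 locus at chr4:152087645-152087721, where an FGSC peak and a Dif-FGC 1 peak shared 6 bp, with a fold of 5.02 in Dif-FGC 1 and of 13.1 and 7.55 in FGSC 1 and FGSC 2. Qtrt1 followed at 9 bp, with 3.71 in Dif-FGC 1 against 4.67 and 5.64 in the FGSC libraries, and Tdrd7, a germ granule tudor protein gene, at 12 bp, with 3.34 against 43.5 and 14.8. A further Ccnyl1 locus at 13 bp (chr1:64702346-64702380) had 60.4 and 32.1 in Dif-FGC 1 and Dif-FGC 2 against 22.8 and 33.85 in FGSC 1 and FGSC 2. Ankmy2, also at 13 bp, had 10.8 in Dif-FGC 1 against 4.33 and 9.44. The Dif-FGC 1 fold was thus the lowest at Plekhg5, Qtrt1 and Tdrd7 and the highest at Ccnyl1 and Ankmy2.

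**Figure D4:**
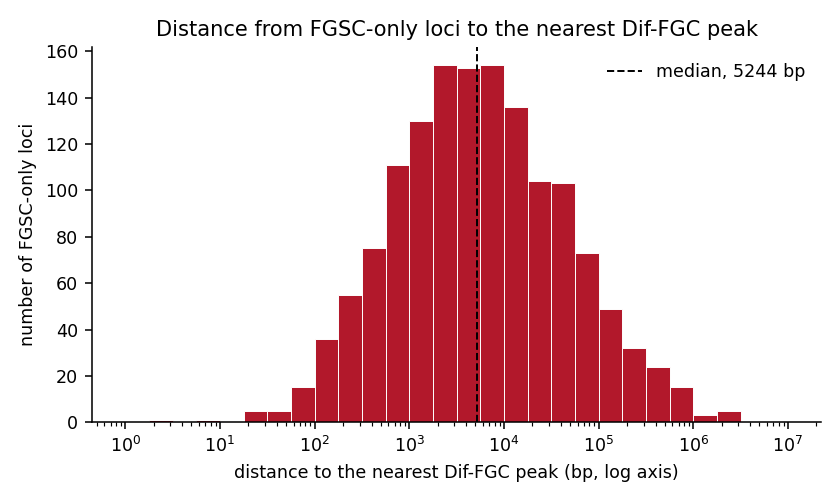
Number of FGSC-only loci (vertical) by the distance from the locus to the nearest Dif-FGC peak in bp (horizontal, log axis). The dashed line marks the median of 5244 bp, and 27 loci lie within 100 bp.

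The 1439 loci were named for 1308 of the 11417 genes with a peak (11.5%). By the first-named gene of each locus, 1175 genes had 1 such locus, 117 had 2 and 9 had 3 or more. Of the 7 genes tied at 3, the 3 with the highest percentile of fold are described. Myh10, a heavy chain of non-muscle myosin, had 5, with their middles at 63.4% to 89.0% of the gene's length, with folds of 6.91 to 11.5 in FGSC 1 and 4.09 to 10.1 in FGSC 2. The gene held 5 peaks in Dif-FGC 1 and none in Dif-FGC 2, against 21 peaks in FGSC 1 and 6 in FGSC 2. Tmem40 had 4 and no Dif-FGC peak, with folds of 5.95 to 26.8 in FGSC 1 and 13.2 to 15.1 in FGSC 2. Col6a3, which encodes a chain of collagen VI, had 3 between 16.1 and 48.2 in FGSC 1 but only 4.09 to 5.66 in FGSC 2, and its 13 FGSC 1 peaks and 3 FGSC 2 peaks stood against none in Dif-FGCs. Kmt2d, a histone methyltransferase gene, had 3 beside 3 loci in all 4 lists. A430078G23Rik, now Arhgef18 in RefSeq, had 3 with folds of 8.93 to 11.9 in FGSC 1 and 2.59 to 25.65 in FGSC 2.

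By chromosome the FGSC-only share of loci was 2.61% on chromosome 2 at the low end and 4.44% on chromosome 6 at the high end, with 3.48% on X. On Y there were 0 of 6 loci.

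Lists of genes by pathway, complex or cell type were then counted against the 3.61% of all loci. Of 39 lists, 18 had a higher FGSC-only share and 21 a lower one. Out of loci held by both libraries of a group, 10.5% of which were FGSC-only over all genes, 5 of the 18 stood below and 2 of the 21 above. The 5 were retinoic acid signalling (9.43%), histone methylation (9.85%), splicing factors (8.89%), clustered histone genes (4.44%) and the subunits of NADH dehydrogenase, cytochrome c oxidase and ATP synthase (7.46%), and the 2 were collagens, laminins and integrins (11.8%) and homeobox and Sox genes (15.8%). Intervals below are 95% Wilson intervals, which cover counting error only, and no list was tested. The interval lay wholly above the 3.61% of all loci for 2 of the 39 lists and wholly below it for 0.

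**Figure D5:**
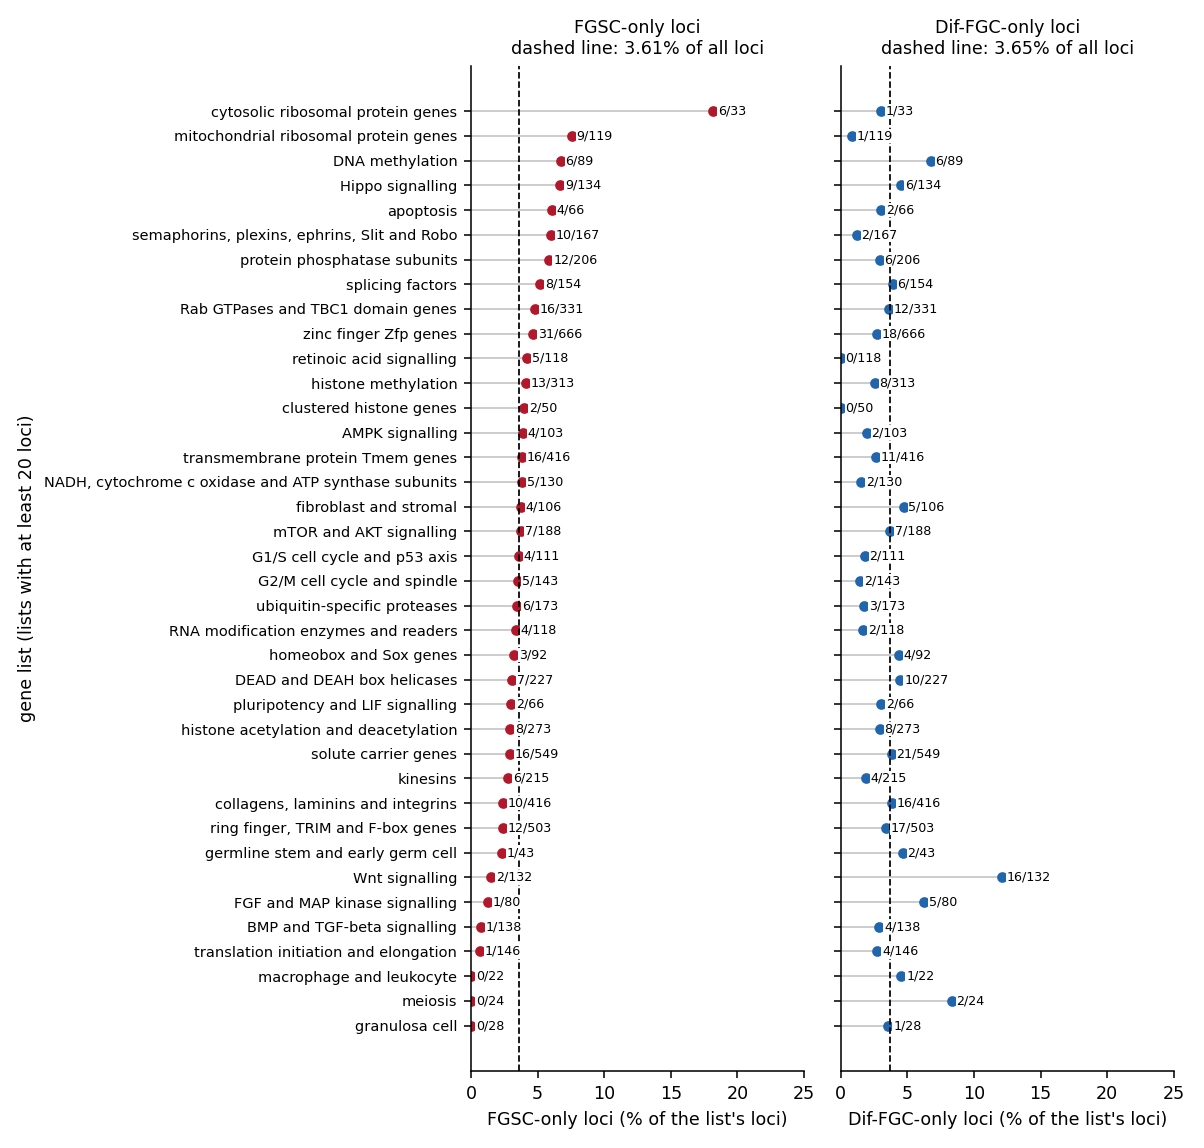
FGSC-only loci (left) and Dif-FGC-only loci (right) as a percent of the loci of each gene list, with the counts beside each point, for the 38 lists with at least 20 loci. Dashed lines mark the shares over all loci, 3.61% and 3.65%. Ribosomal protein genes stand at the top on the left with 6 of 33, and Wnt signalling stands farthest right on the right with 16 of 132.

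The highest share was that of cytosolic ribosomal protein genes, with 6 FGSC-only of 33 loci (18.2%, 8.61% to 34.4%) and 1 Dif-FGC-only locus. These 6 need care. Rpl36-ps3, Rpl31-ps12 and Rpl21-ps4 are pseudogene copies, and the locus named Rpl29 lies on chromosome 1 while RefSeq places Rpl29 on chromosome 9, so reads of near-identical copies may be split among them. Rpl34 and Rpl38, given to complete the 6 although outside the rule for named genes, lie in the named genes, with folds of 8.18 and 6.80 in FGSC 1 and 5.02 and 2.04 in FGSC 2. Mitochondrial ribosomal protein genes had 9 of 119 loci (7.56%, 4.03% to 13.8%) and 1 Dif-FGC-only locus. Mrpl12 led with folds of 27.1 and 15.2 over its start (chr11:120484613-120484768), followed by Mrps11 with 20.98 and 13.8, Mrpl54 with 12.7 and 14.7, and Mrpl38 with 17.9 and 3.42. Translation initiation and elongation factors had 1 of 146 loci (0.685%, 0.121% to 3.78%), in Eef1e1, a gene of the aminoacyl-tRNA synthetase complex, with 18.3 and 20.3.

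DNA methylation genes had 6 of 89 loci (6.74%, 3.13% to 13.9%), and as many were Dif-FGC-only. Among them were loci in the maintenance methyltransferase gene Dnmt1 and its partner Uhrf1, the de novo methyltransferase genes Dnmt3a and Dnmt3b, and the methyl-CpG binding domain gene Mbd3. Dnmt1 had folds of 32.4 and 9.76 at its start (chr9:20952708-20952979), 84 bp from a Dif-FGC peak, and 6 other Dnmt1 loci were in all 4 lists. Uhrf1 had 15.2 and 9.80, also at its start, and Mbd3 had 19.2 and 15.3. In each of these 5 genes another locus was shared by all 4 lists. Histone methylation genes had 13 of 313 loci (4.15%), led by Nsd1 with 35.6 and 51.8 at chr13:55211819-55212000, and 10 of the 13 lay in genes with a locus in all 4 lists. Histone acetylation and deacetylation genes had 8 of 273 (2.93%), among them the acetyltransferase gene Crebbp with 11.9 and 6.16.

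Hippo signalling restrains growth by holding back the coactivator Yap1. The list of its genes, Yap1 among them, had 9 of 134 loci (6.72%, 3.57% to 12.3%) in 6 genes, with 6 Dif-FGC-only loci. Yap1 had folds of 116 and 22.3 over its start (chr9:8004123-8004596) and no Dif-FGC peak. Its DNA-binding partner Tead1 had 33.9 and 6.61 at the stronger of 2 loci, the angiomotin gene Amotl2 had 46.4 and 11.3, and Frmd6 had 18.8 and 8.50 at its start, 115 bp from a Dif-FGC peak. The mTOR and AKT list had 7 of 188 (3.72%), near the share of all loci. Its strongest were the S6 kinase genes, Rps6kb1 with 106 and 46.8 over its start (chr11:86544566-86544807) and Rps6kb2 with 100.02 and 28 at chr19:4163168-4163354. AMPK signalling had 4 of 103 (3.88%), in the fatty acid synthesis genes Acaca, Acacb and Fasn and in Pfkfb3, with Acaca at 12.2 in FGSC 1 and 38.4 in FGSC 2.

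Lists of developmental signalling pathways were counted too. Retinoic acid signalling had 5 of 118 (4.24%) and 0 Dif-FGC-only loci, among them loci in the coactivator genes Ncoa1 (12.8 and 7.24) and Ncoa2 (5.95 and 5.94). BMP and TGF-beta signalling had 1 of 138 (0.725%, 0.128% to 3.99%), in Tgfb3 with 14.9 and 20.8. FGF and MAP kinase signalling had 1 of 80 (1.25%, 0.221% to 6.75%), in Hras with 8.03 and 6.59. Wnt signalling had 2 of 132 (1.52%, 0.416% to 5.36%), in the receptor genes Fzd4 (20.6 and 5.66) and Lrp5 (7.74 and 11.01), beside 16 Dif-FGC-only loci (12.1%).

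Cell cycle genes lay near the share of all loci, with 4 of 111 for the G1/S list and 5 of 143 for the G2/M list. The members included inhibitors and drivers of division. Of the cyclin-dependent kinase inhibitor genes, Cdkn2a had 38.1 and 16.4 over its start (chr4:89294334-89294653) and a further locus with 8.33 and 4.40, and Cdkn1a had 19.4 and 15.7 over its start (chr17:29090979-29091101). Cyclin gene Ccnd2 had 5.91 and 3.8 and the mitotic kinase gene Cdk1 had 4.80 and 4.58. Bub1, a spindle checkpoint kinase gene, had 15.1 and 10.7 over its start (chr2:127831720-127831865). Cdkn2a, Cdkn1a, Ccnd2 and Bub1 had no Dif-FGC peak, while Cdk1 had a locus in all 4 lists. Apoptosis genes had 4 of 66 (6.06%, 2.38% to 14.6%), among them loci in the death receptor gene Tnfrsf10b, the survival gene Bcl2l1 and the caspase gene Casp6.

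Splicing factor genes had 8 of 154 (5.19%), led by Rbfox2 with 90.5 and 23.3 at chr15:77153669-77153812. RNA modification enzymes and readers had 4 of 118 (3.39%), in the pseudouridine synthase gene Pus1 (22.4 and 44.7), the mRNA-binding protein gene Igf2bp2 (68.9 and 4.72), the m6A writer subunit gene Wtap (12.2 and 3.59) and Thumpd1, an adaptor of NAT10 for tRNA acetylation (15.8 and 2.76). Igf2bp2 and Thumpd1 had no Dif-FGC peak. DEAD and DEAH box helicase genes had 7 of 227 (3.08%), led by Ddx50 with 69.3 and 20.7.

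Guidance genes of the semaphorin, plexin, ephrin, Slit and Robo families had 10 of 167 loci (5.99%, 3.28% to 10.7%) and 2 Dif-FGC-only loci. Beside Plxnb3, the guidance ligand gene Slit2 had 89.9 and 54.1 over its start (chr5:47983155-47983741), the ephrin gene Efna5 51.8 and 15.7, and the Eph receptor gene Ephb4 22.0 and 10.1, all at starts. Slit2 and Ephb4 had no Dif-FGC peak. Protein phosphatase subunit genes had 12 of 206 (5.83%), led by Ppp4r2 with 32.9 and 16.1, and zinc finger Zfp genes 31 of 666 (4.65%). Solute carrier genes had 16 of 549 (2.91%), with Slc35b2 at 61.4 and 60.6, and collagen, laminin and integrin genes 10 of 416 (2.40%).

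Lists of cell type markers were counted in the same way. In the germline list of 35 genes, 15 had a peak in any list, and of their 43 loci 1 was FGSC-only (2.33%) and 2 were Dif-FGC-only (4.65%). The FGSC-only locus lay in Ifitm3, a surface protein of early germ cells, with 39.3 and 13.2 over its start (chr7:141010397-141010770). A total of 7 of the genes had peaks in all 4 libraries, namely the receptor gene Kit, the transcription factor genes Etv4, Etv5, Zbtb16 and Foxo1, Taf4b and the integrin gene Itgb1. Peaks in FGSC lists alone were found for 4 genes, Ifitm3, Thy1, Gfra1 and Id4, the last 2 in FGSC 1 only. Peaks in Dif-FGC lists alone were found for 3, Itga6 in both lists, Bcl6b in Dif-FGC 1 and Prdm1 in Dif-FGC 2. Tex14 had 4 and 0 peaks in Dif-FGC 1 and Dif-FGC 2 and 3 and 1 in FGSC 1 and FGSC 2. The other 20 genes of the list, among them Ddx4, Dazl, Dppa3, Pou5f1, Sall4 and Nanos2, had no peak in any library. Peaks over this list numbered 23 in Dif-FGC 1, 16 in Dif-FGC 2, 26 in FGSC 1 and 20 in FGSC 2. Meiosis genes had 0 of 24 loci, for which the interval reaches up to 13.8%. The pluripotency list had 2 of 66 (3.03%), in Klf2 (32.2 and 6.29) and Tbx3 (13.5 and 11.3).

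Peaks in markers of other cells differed between the libraries. The whole lists held 22480 peaks in Dif-FGC 1, 13920 in Dif-FGC 2, 22791 in FGSC 1 and 16290 in FGSC 2. Granulosa cell genes had 0 FGSC-only of 28 loci (interval up to 12.1%). Their peaks numbered 18 and 5 in Dif-FGC 1 and Dif-FGC 2 and 10 and 5 in FGSC 1 and FGSC 2. Of the 21 genes, 10 had no peak in any list, the defining genes Foxl2, Amh, Fshr and Cyp19a1 among them, 6 had peaks in Dif-FGC lists alone and 1, Fst, in an FGSC list alone. Nr5a1, a regulator of steroid-producing cells, had 4 and 1 peaks in Dif-FGC 1 and Dif-FGC 2 and none in FGSCs, and Nr5a2 had 2 and 1 and none. Inhba, an activin subunit gene, had 2 and 0 peaks in Dif-FGC 1 and Dif-FGC 2 against 3 and 3 in FGSC 1 and FGSC 2. Fibroblast and stromal genes had 4 of 106 (3.77%), in Pdgfra, Twist1, Col6a1 and Fn1. Peaks over this list numbered 34 and 20 in the Dif-FGC lists and 73 and 25 in the FGSC lists. Of its 19 genes, 6 had no peak in any list, 7 had peaks in FGSC lists alone and 0 in Dif-FGC lists alone. Fn1, the fibronectin gene, had 15 and 17 peaks in Dif-FGC 1 and Dif-FGC 2 against 16 and 5 in FGSC 1 and FGSC 2. Col5a1 had 13 and 1 against 26 and 3, Vim had 2 and 2 against 0 and 1, and Col1a2 had none in Dif-FGCs against 9 and 2. Macrophage and leukocyte genes had 0 of 22 loci and endothelial genes 0 of 3. Of the 15 macrophage and leukocyte genes, 4 had no peak in any list, 5 had peaks in FGSC lists alone and 3 in Dif-FGC lists alone. Of the 10 endothelial genes, 7 had no peak, 2 had peaks in FGSC lists alone and 0 in Dif-FGC lists alone. The part of other cells in the FGSC-only loci was not tested.

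The authors' pathway and ontology terms were counted in the same way. Among 75 KEGG pathways with at least 100 loci held by both libraries of a group, the highest FGSC-only share was that of tight junction, with 25 of 382 loci (6.54%) in 15 genes and 7 Dif-FGC-only loci. Of the 25, 5 were those of Myh10 and 3 lay in Src, a tyrosine kinase gene named after its values were seen, with folds of 16.7 to 29.8 in FGSC 1 and 3.78 to 4.40 in FGSC 2. Further members were the actin-binding genes Cttn, Actn1 and Myh9 and the GTPase genes Rhoa and Hras. The pathways titled tuberculosis (22 of 346, 6.36%), viral carcinogenesis (35 of 635, 5.51%) and microRNAs in cancer (29 of 533, 5.44%) came next, and they shared genes such as Crebbp and Rhoa. Metabolic pathways had the most loci, 89 of 2281 (3.90%). Of 79 biological processes, regulation of gene expression had the highest share, with 20 of 328 (6.10%) beside 19 Dif-FGC-only loci (5.79%), followed by cell proliferation with 22 of 385 (5.71%) beside 15 (3.90%). For the process of RNA splicing, 31 of 705 loci (4.40%) were FGSC-only and 18 were Dif-FGC-only. Of the 342 splicing loci held by both libraries of a group, 9.06% were FGSC-only, below the 10.5% of all 13690 such loci.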

How the data were processed

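The authors deposited 1 list of ac4C peaks per IP library, each called over its own input. Per the submitters' processing notes, cutadapt, HISAT2 and MACS2 were used with the mm10 build, and versions are not given in the sources used here. The fold (ratio of IP over input), the score and the FDR in percent are the authors' values as deposited. The smallest fold in the lists was 2 and the smallest score 50. Read counts were not used here, so depth and counting precision per peak are unknown.

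Peaks were pooled over 4 lists and merged at 1 bp of overlap with Python 3.11.15, pandas 2.3.3, numpy 2.4.6 and scipy 1.17.1. The merging was tested on simulated lists. Gene names were matched to RefSeq by symbol (10652), gene ID (430) or synonym (179), and 156 had no match. Members and gene lists were chosen with earlier results of these data known. Named were the 20 strongest loci, the 5 longest, the 5 genes with the most loci (ties by percentile of fold), up to 4 loci per gene list and the 5 loci on each side of the overlap rule. The 30-base stretches at transcript starts, which can lie in a UTR, were chosen after the data were seen. Alternatives changed the merging, the overlap, the threshold on peaks and the libraries. Some genes that the rule names are not reported here.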

Additional observations from a re-analysis of the deposited data

How the results depend on the processing

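No paired analysis was possible because the results come from no test. The start shares under each alternative were chosen after seeing the data. With only the peaks in the upper 50% by fold there were 800 loci in 763 genes, median folds of 19.16 in FGSC 1 and 12.59 in FGSC 2, a length of 196 bp, 21.5% with a locus of all 4 lists in the gene, 52.5% with a Dif-FGC peak elsewhere, and start shares of 41.4% for FGSC-only and 20.6% for Dif-FGC-only loci. With each list shortened to 13920 peaks by score, the fold in FGSC 1 was 15.49, the length 179 bp, these shares 27.7% and 64.2%, and the start shares 33.1% and 13.5%. Without chaining, the length was 150 bp and the start shares 23.2% and 8.75%. With no Dif-FGC peak within 500 bp, 68.6% had a Dif-FGC peak elsewhere. Leaving out 1 library gave 1954 to 9815 loci, 1731 to 5701 genes, folds of 7.69 to 11.18 and 4.72 to 6.49, and lengths of 118 to 175 bp. In these runs 37.6% to 43.2% had a locus of all remaining lists in the gene, a looser rule than all 4 lists. A Dif-FGC peak elsewhere was found for 58.4% to 74.3%. The start shares were 8.87% to 28.2% for FGSC-only and 4.71% to 16.8% for Dif-FGC-only loci. Of the 1439 loci, 784 remained in the shortened lists, 444 in the upper 50% by fold, and 1386 with an overlap of at least 50% of the shorter peak. Depth per peak is unknown, so it could not be set against these changes.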

Other observations

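The following loci were chosen after their values were seen. H19, an imprinted noncoding RNA gene, had a single locus in the series, an FGSC-only one of 1515 bp at chr7:142576632-142578146. Its fold was 28.9 in FGSC 1, where the peak spanned the whole locus, and 8.81 in FGSC 2, where it spanned 316 bp (chr7:142576969-142577284). The locus holds the whole hairpin of miR-675 on the minus strand. Its mature forms are shown from RefSeq (GRCm38.p6), from 5′ to 3′, with the seed, bases 2 to 8, in capitals.
mmu-miR-675-5p: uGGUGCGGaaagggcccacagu
mmu-miR-675-3p: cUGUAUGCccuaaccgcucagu

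Both mature forms of miR-675 lie inside the FGSC 2 peak as well as the FGSC 1 peak, and H19 had no Dif-FGC peak. Agfg2 had far apart folds, 28.45 in FGSC 1 and 468 in FGSC 2, at a start of the gene (chr5:137684359-137684753), and the nearest Dif-FGC peak lay 16584 bp away.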
